A study of Anas platyrhynchos with 6 samples.

Results

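The microRNAs miR-192, miR-194 and miR-215 were examined in small RNA libraries of the duodenum of prelaying ducks (Anas platyrhynchos). They were taken by name alone. After the species prefix was dropped, every name of miR-192, miR-194 or miR-215 was kept, whatever its letter, copy or arm, which gave 29 of the 1568 miRNA names in the deposited tables. These names carried 18 species prefixes, and the duck prefix apl was not among them, so each level below is that of duck reads counted under the name of another animal's miRNA. Of the 29 names, 7 belong to miR-192, 12 to miR-194 and 10 to miR-215. Reads were counted for 28 of them, and aca-miR-194-1-3p was listed at 0 in every library. Several names had exactly equal read counts in all 6 libraries, and with each such set taken once the 28 detected names came to 23. Such names are described below as holding the same or identical reads, although only their counts were seen to be equal.

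Nonghu No. 2 ducks were selected at 90 days of age, and every duck was kept on the floor before a trial of 10 days. The traditional breeding (TB) group stayed on the floor, the cage rearing (CR) group was housed in cages, and both received the same feed and management. The labels give 3 libraries of each group and do not say how many ducks stand behind a library, so a p-value below measures only the spread between these samples. The labels name intestinal epithelial cells as the cell type, whereas the methods describe a 5 cm piece of duodenum.

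A microRNA is cut from a hairpin precursor, and either side of the hairpin (the 5p arm and the 3p arm) can yield a mature RNA of which one is usually kept and the other broken down. In mammals, genes of miR-194 lie next to those of miR-192 and miR-215 and are transcribed with them. miR-192 and miR-215 are close relatives that share their seed, the stretch near the 5′ end that pairs with target mRNAs, while miR-194 has another seed. All of them are known in mammals as abundant microRNAs of the intestinal epithelium, and in human cells their genes respond to the tumour suppressor p53.

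Levels are given in RPM, with no correction for length. RPM is the reads counted under a name for every 1000000 reads summed over all names of its library. A read listed under several names enters that sum each time. The sums were 5708735, 9339494 and 9014316 reads in TB replicates 1 to 3. For CR replicates 1 to 3 they were 11395209, 1500905 and 9998318 reads. A single read was thus worth between 0.0878 RPM (CR replicate 1) and 0.666 RPM (CR replicate 2). The distinct names of miR-143 and miR-145, several with nearly equal levels, filled 262521 of every 1000000 RPM with CR replicate 2. For CR replicate 3 this was 570557. How far repeated counting changes the scale of RPM between libraries was not tested. Over all tested names TB replicate 1 and CR replicate 2 correlated at 0.968 with each other and at 0.737 to 0.818 with the other 4 libraries, which correlated at 0.982 to 0.992 among themselves (Pearson's r of log2(RPM + 1) across 662 names, which are not independent). They belong to different groups, and results are therefore also given without them.

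The 5p arm of miR-215 was the most abundant of these microRNAs. In the TB libraries, taken from replicate 1 to 3 here and below, hsa-miR-215-5p stood at 11199.5, 103047 and 143915 RPM, and in the CR libraries at 91467, 12535 and 106975 RPM. It was the second most abundant of all names in TB replicate 3 and the fourth in TB replicate 2, CR replicate 1 and CR replicate 3, but ranked 19 in TB replicate 1 and 18 in CR replicate 2. Each name takes a place in these ranks, also where several belong to one microRNA. By mean level the names above it were ola-miR-143 (144698 RPM), mmu-miR-143-3p and efu-miR-143 (136311 RPM each), all of miR-143. The lowest of the other 4 libraries was 7.30 times as high as the higher of TB replicate 1 and CR replicate 2. The groups overlapped, and most of the spread lay inside each group.

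mmu-miR-194-5p, the guide arm of miR-194 in mammals, was counted at 20685, 29756 and 34853 RPM in the TB libraries and at 25632, 11480 and 25032 RPM in the CR libraries. Again TB replicate 1 and CR replicate 2 were the lowest of the 6 libraries, yet the lowest of the other 4 was only 1.21 times as high as TB replicate 1. In TB replicate 1 miR-194-5p was therefore above miR-215-5p, and in each of the other 5 libraries it was below.

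The names of miR-192 held far fewer reads than hsa-miR-215-5p. Since no sequence was read, it is not known whether some reads of miR-215 were counted under these names. The levels of miR-192 are uncertain for that reason. dre-miR-192 and ola-miR-192-5p held the same reads, at 136, 495 and 715 RPM in the TB libraries and 516, 275 and 843 RPM in the CR libraries. The low libraries were the same as for miR-215-5p. The ratio of miR-215-5p to miR-192-5p was 82.5 in TB replicate 1 and 45.6 in CR replicate 2, against 127 to 208 in the other 4. No 3p name of miR-192 was listed among these 29.

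The 3p arms did not have this pattern. The level of aca-miR-215-3p was 608, 459 and 516 RPM in the TB libraries and 283, 457 and 275 RPM in the CR libraries. TB replicate 1 held the highest value of all and CR replicate 2 the highest of its group, where the 5p arm of the same microRNA was lowest. bta-miR-194b-3p stood at 1032, 848 and 935 RPM with TB and at 765, 947 and 712 RPM with CR, and was also highest in TB replicate 1 and CR replicate 2. cpi-miR-194-3p, which shares all its reads with tgu-miR-194-3p, reached 113, 136 and 126 RPM with TB and 116, 180 and 77.5 RPM with CR, where CR replicate 2 was above all others. Higher values in these libraries were common, since 57.3% of the 662 tested names were above all others in both, and 21.8% below. The mean log2(RPM + 1) of TB replicate 1 and CR replicate 2 was compared with that of the other 4. It was higher by 0.52 for aca-miR-215-3p, 0.29 for bta-miR-194b-3p and 0.35 for cpi-miR-194-3p. The median over all tested names was 1.48.

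**Figure D1:**
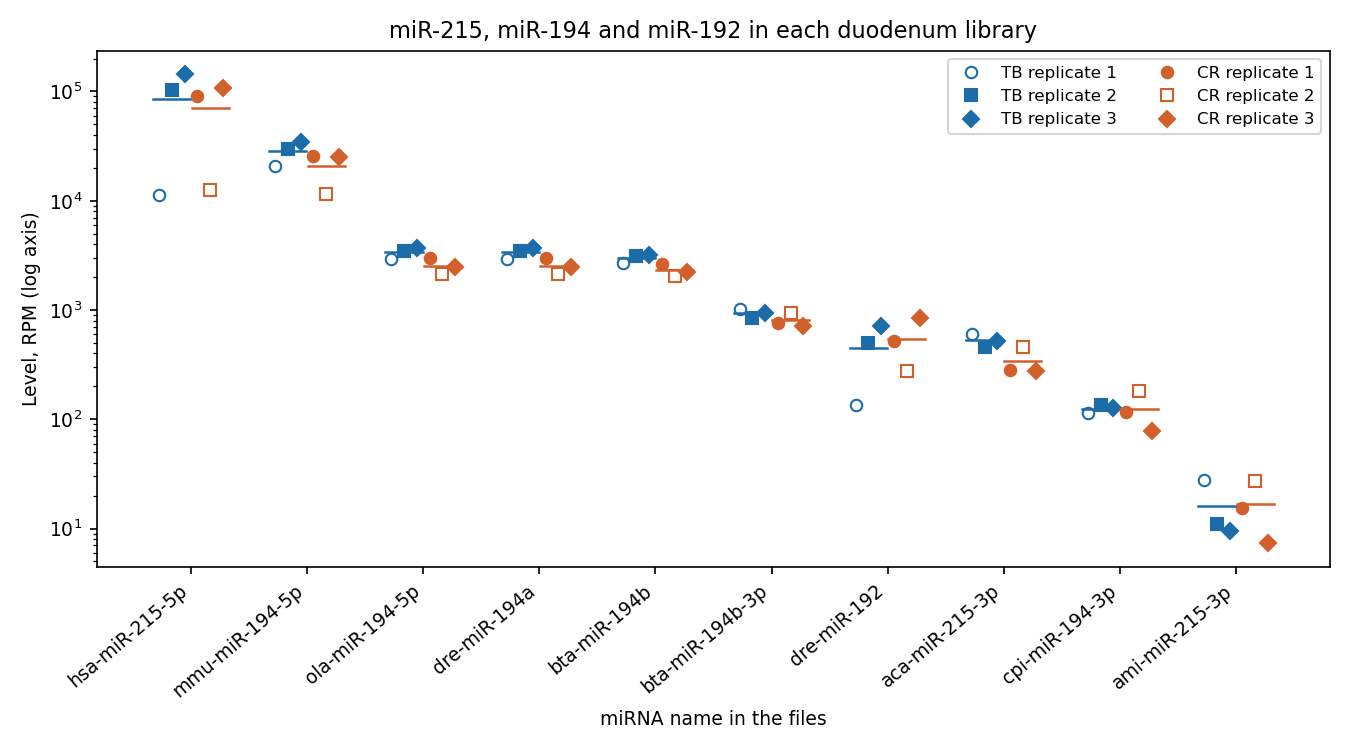
Level in RPM (log axis) of the 10 members with distinct reads and a mean of at least 10 RPM, one point for each library (blue TB, orange CR), with lines at the group means. Open symbols mark TB replicate 1 and CR replicate 2, which lay lowest for hsa-miR-215-5p (11199.5 and 12535 RPM), mmu-miR-194-5p and dre-miR-192, but not for the 3p names.

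By mean level the order was hsa-miR-215-5p (78190 RPM), mmu-miR-194-5p (24573 RPM), the names ola-miR-194-5p, dre-miR-194a and bta-miR-194b (2956, 2955 and 2654 RPM), bta-miR-194b-3p (873 RPM), dre-miR-192 (497 RPM), aca-miR-215-3p (433 RPM), cpi-miR-194-3p (125 RPM) and ami-miR-215-3p (16.4 RPM). The ranges over libraries overlapped between the first and the second name, and among ola-miR-194-5p, dre-miR-194a and bta-miR-194b. That of dre-miR-192 overlapped those of bta-miR-194b-3p, aca-miR-215-3p and cpi-miR-194-3p. Ranges did not overlap at the other steps of this order, from mmu-miR-194-5p to ola-miR-194-5p, from bta-miR-194b to bta-miR-194b-3p, from aca-miR-215-3p to cpi-miR-194-3p and from there to ami-miR-215-3p.

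Together the 23 distinct sets of reads, in which a read listed under 2 names counts for each, made up 4.24%, 14.5% and 19.2% of all RPM in TB replicates 1 to 3 and 12.7%, 3.22% and 14.1% in CR replicates 1 to 3. The group means were 12.6% ± 7.63 (SD, n = 3) in TB and 10.0275% ± 5.93 (SD, n = 3) in CR, a difference of -2.60 percentage points that was within the spread between libraries (p = 0.5 in a two-sided exact permutation test, for which 0.1 is the smallest p with 3 libraries against 3). Without CR replicate 2 the difference was 0.80 percentage points, without TB replicate 3 it was 0.66, and without TB replicate 1 it was -6.80. hsa-miR-215-5p and mmu-miR-194-5p carried 74.5% to 93.5% of this sum in each library. If whole duodenum was sequenced, as the methods describe, fewer epithelial cells and less of a microRNA in each cell cannot be told apart.

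A ratio of 2 names within a library does not depend on the library total. The arms of miR-215 were paired by name across species, since no sequence was read, and the more abundant 3p name was used. hsa-miR-215-5p was 18.4, 225 and 279 times as high as aca-miR-215-3p in TB replicates 1 to 3 and 323, 27.4 and 389 times as high in CR replicates 1 to 3. The 5p arm exceeded the 3p arm in 6 of 6 libraries, with a mean log2 ratio of 6.98 ± 1.95 (SD, n = 6; two-sided exact sign-flip permutation test, p = 0.03125, the smallest that 6 libraries allow). With all 6 ratios on one side, this p says no more than that count. The size of that excess varied 21.1-fold between libraries. Leaving aside TB replicate 1 and CR replicate 2, it lay between 225 and 389.

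Between the groups the log2 ratio of the arms was 6.71 ± 2.18 (SD, n = 3) in TB and 7.24 ± 2.14 (SD, n = 3) in CR, which overlapped (difference 0.53, two-sided exact permutation test, p = 0.5). The difference turned to -0.73 without TB replicate 1, to -0.02 without CR replicate 1 and to -0.16 without CR replicate 3, and it was 1.76 without CR replicate 2. Within the 4 alike libraries the means were 7.97 in TB and 8.47 in CR, and between TB replicate 1 and CR replicate 2 the second was higher by 0.57.

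For miR-194 the arms were likewise paired only by name, and it is not known which 3p name comes from the hairpin of mmu-miR-194-5p. Against bta-miR-194b-3p, the more abundant of the 3p names, the 5p arm was 20.04, 35.1 and 37.3 times as high in TB and 33.5, 12.1 and 35.2 times as high in CR. Against cpi-miR-194-3p it was 183, 218 and 277 times as high in TB and 220.4, 63.8 and 323 times as high in CR. CR replicate 2 had the lowest ratio in both cases and TB replicate 1 the next lowest. The spread over libraries was 3.08-fold and 5.06-fold, less than the 21.1-fold of miR-215, a comparison with no test.

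**Figure D2:**
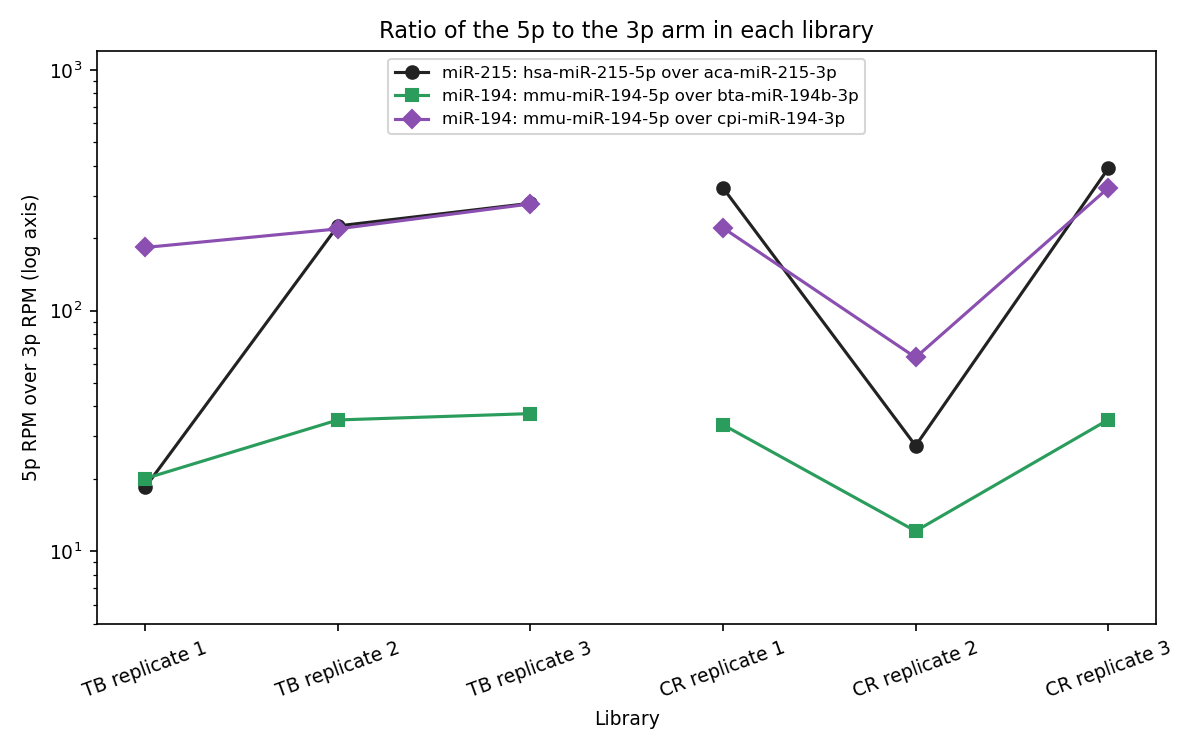
Ratio of 5p RPM to 3p RPM (log axis) in each of the 6 libraries for miR-215 and, with each of its 3p names, for miR-194; lines join values of one ratio and carry no order. The ratio of miR-215 was 18.4 in TB replicate 1 and 27.4 in CR replicate 2, against 225 to 389 elsewhere.

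Among all tested names, 51 labels had both a 5p and a 3p name, and 46 were left after 2 labels with arms that moved alike in every library and 3 near copies of another pair were removed, all within 0.1 on the log2 scale, a limit set after the values were seen. In the mean of TB replicate 1 and CR replicate 2 the log2 ratio of the arms of miR-215, on RPM + 1, differed by -3.73 from the mean of the other 4 libraries, where the 46 pairs had a median of -0.49 and ran from -6.31 to 4.80. For miR-194, with cpi-miR-194-3p, the same difference was -1.24. For ssc-miR-194b-5p with bta-miR-194b-3p it was -1.60, and there the 3p name was the more abundant, with a mean log2 ratio of -7.35. That pair was matched across species by label alone, and ssc-miR-194b-5p had only 270 reads in all and 1 in CR replicate 2. It does not show which arm of a duck hairpin prevails, since mmu-miR-194-5p was above the same 3p name in 6 of 6 libraries. These differences are descriptions of 2 libraries set apart by their data, and no test was made of them.

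The ratio of mmu-miR-194-5p to hsa-miR-215-5p, whose genes are neighbours in mammals, was 1.85, 0.289 and 0.242 in TB replicates 1 to 3 and 0.280, 0.916 and 0.234 in CR replicates 1 to 3. Its log2 mean was -0.98 ± 1.62 (SD, n = 3) in TB and -1.35 ± 1.07 (SD, n = 3) in CR, with overlap (difference -0.37, two-sided exact permutation test, p = 0.6). Without TB replicate 1 the difference was 0.57 and without CR replicate 2 it was -0.98. In TB replicates 2 and 3 and CR replicates 1 and 3 alone, the log2 means were -1.92 and -1.97.

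Between CR and TB, 14 of the 29 names had enough reads to be tested (at least 10 reads in at least 3 libraries), in 12 distinct sets. With limma on log2(RPM + 1), 0 of them had an adjusted p under 0.05 (Benjamini-Hochberg over 662 names, of which 0% passed) and 0 an unadjusted p under 0.05 (0% of the 662). The smallest unadjusted p was 0.220 for aca-miR-215-3p. edgeR and DESeq2, run on the reads behind the RPM values, gave 0 of these names an unadjusted p under 0.05 too, where 0.755% of the 662 names passed with either tool. The unpaired test of the study's statistics section, on log2 values and at 0.05, passed 1 of them, bta-miR-194b (unadjusted p = 0.043), and 1.36% of the 662 names. For its differential miRNAs the paper set a stricter limit on p and a minimum level, which were not applied here. The median log2 fold change of the 12 sets was -0.30, with 9 of them below 0, beside a median of 0.05 over all 662 names, of which 45.8% were below 0. TMM scaling, which shifted the median of all names by -0.16, gave -0.49 for the sets. The members are not independent of each other, since several share reads.

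For hsa-miR-215-5p the TB mean of 86054 ± 67970.1 RPM and the CR mean of 70326 ± 50645 RPM (SD, n = 3 each) gave a log2 fold change of -0.15 with a standard error of 1.25 (limma, adjusted p = 0.999). Its sign depended on single libraries: the log2 fold change was -1.29 without TB replicate 1 and 0.85 without CR replicate 2, and positive also without TB replicate 2 (0.31) or TB replicate 3 (0.55). Without both TB replicate 1 and CR replicate 2 it was -0.30, with overlapping groups. For mmu-miR-194-5p the log2 fold change was -0.51 with a standard error of 0.46, and it stayed below 0 in all 17 alternatives run, from -0.73 to -0.13. dre-miR-192 went the other way, with 0.44 and a standard error of 0.82, and -0.27 without TB replicate 1.

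In 2 of the 14 names all CR values were lower than all TB values, as they were in 1.66% of the 662 tested names. These were aca-miR-215-3p and bta-miR-194b. No member had all CR libraries above all TB libraries (0.604% of the tested names did). aca-miR-215-3p averaged 528 ± 75.3 RPM with TB and 338 ± 103 RPM with CR (SD, n = 3 each; p = 0.1 by a two-sided exact permutation test, its smallest possible value), a log2 fold change of -0.67 with a standard error of 0.49. The nearest values of the groups were close, at 459 RPM in TB replicate 2 and 457 RPM in CR replicate 2. For bta-miR-194b the levels were 2718, 3101 and 3191 RPM with TB and 2653, 2042 and 2221 RPM with CR, with a log2 fold change of -0.39 and a standard error of 0.38.

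The libraries were also compared with those most like them, a grouping taken from these same data, and no test was made of the counts. CR replicates 1 and 3 lay below TB replicates 2 and 3 in 9 of the 14 names, where 25.4% of all tested names did. With identical reads taken once this was 8 of 12. They lay above them in none of the 14 (6.19% of all tested names). In 7 of the 9 names, CR replicate 2 was also below TB replicate 1. Both conditions were thus met by 7 of the 14 names (7 of 12 with identical reads once) and by 7.85% of all tested names. These 7 were mmu-miR-194-5p, ola-miR-194-5p, dre-miR-194a, bta-miR-194b, bta-miR-194b-3p, ssc-miR-194b-5p and aca-miR-215-3p, of which all but the last belong to miR-194 and can share reads. In the 4 alike libraries mmu-miR-194-5p averaged 32304 RPM with TB and 25332 RPM with CR, and aca-miR-215-3p 487 RPM and 279 RPM. hsa-miR-215-5p and dre-miR-192 overlapped there. Fitted without TB replicate 1 and CR replicate 2, limma gave these names a smallest adjusted p of 0.975.

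**Figure D3:**
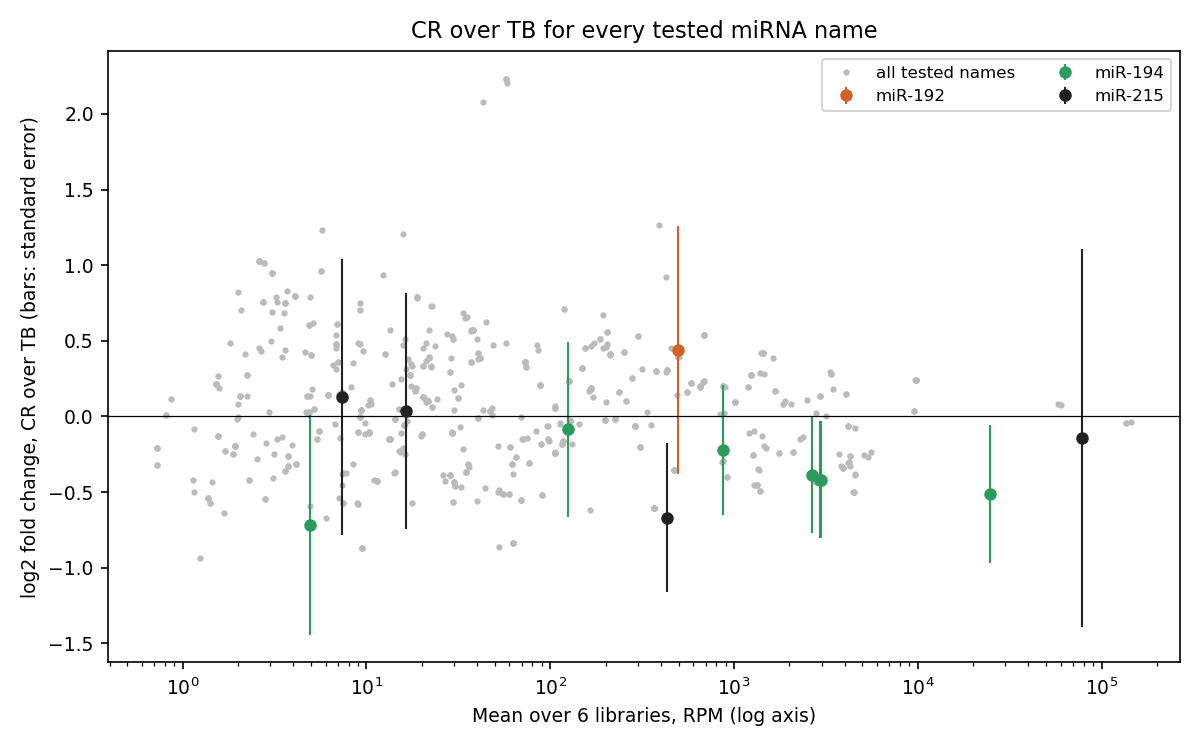
log2 fold change, CR over TB, against mean level in RPM (log axis) for the 662 tested names (grey) and the 12 distinct members (coloured, bars are standard errors from limma). hsa-miR-215-5p lies at -0.15 with a standard error of 1.25, and the miR-194 names lie between -0.72 and -0.08.

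The lower names of miR-194 show how reads were counted. ola-miR-194-5p and dre-miR-194a differed by 10, 10 and 8 reads in TB and by 8, 1 and 5 reads in CR, out of 3213 to 34198 reads. Nearly every read was thus probably counted under both. bta-miR-194b held 86.9% to 95.4% as many reads as ola-miR-194-5p. ola-miR-194-5p held 14.3%, 11.7% and 10.5% as many reads as mmu-miR-194-5p in TB and 11.7%, 18.6% and 9.88% in CR, a share that was highest in CR replicate 2 (95% Wilson interval 18.1% to 19.2%) and TB replicate 1 (14.1% to 14.5%). The reads of these names cannot be separated in the files, and their levels are uncertain for that reason.

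pal-miR-215-5p followed hsa-miR-215-5p closely. It had 7, 77 and 122 reads in TB and 101, 4 and 98 reads in CR, which is 1.09, 0.800 and 0.940 reads for every 10000 reads of hsa-miR-215-5p in TB and 0.969, 2.13 and 0.916 in CR. All 6 Wilson intervals (95%) shared the range from 0.827 to 0.9998. ssc-miR-194b-5p likewise had 1.95, 2.27 and 2.04 reads for every 10000 reads of mmu-miR-194-5p in TB and 2.33, 0.580 and 2.04 in CR, the lowest from 1 read.

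Other minor names did not keep a fixed share. ami-miR-215-3p held 4.55%, 2.38% and 1.85% as many reads as aca-miR-215-3p in TB and 5.49%, 5.98% and 2.66% in CR. The interval of CR replicate 1 (4.75% to 6.33%) lay above that of CR replicate 3 (2.12% to 3.33%), so this share differed between libraries of one group by more than counting error. hsa-miR-192-5p, with the same reads as efu-miR-192, had 1, 9 and 6 reads in TB and 14, 10 and 8 reads in CR. In CR replicate 2 its 10 reads were 2.42% as many as those of dre-miR-192 (95% Wilson interval 1.32% to 4.40%), against 0.0931% to 0.238% in the other 5 libraries.

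The remaining names were near the limit of detection. Of the 13 distinct sets under 10 RPM, 3 had fewer than 10 reads over all libraries. xtr-miR-215 had 8 and 7 reads in TB replicates 2 and 3 and 11 reads in CR replicate 3, and 0 reads in TB replicate 1, CR replicate 1 and CR replicate 2. With 0 reads a level of up to 0.263 RPM is possible in CR replicate 1, the library with the largest sum of reads. In CR replicate 2 one of up to 1.999 RPM is possible. There a level like that of the other libraries was not detectable at this depth. gga-miR-215-3p, the name of the chicken microRNA, had 2 reads in all. Intervals and limits cover counting error only.

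The profile of hsa-miR-215-5p over the libraries was compared with that of every other tested name, by the root mean square difference of log2(RPM + 1) after each name was centred on its own mean. Among 446 distinct profiles the closest were efu-miR-101 (0.16), gga-miR-32-5p (0.16), hsa-miR-101-3p (0.17), cfa-miR-101 (0.20) and tgu-miR-142-3p (0.28), where the median was 2.31. hsa-miR-101-3p, for instance, was counted at 733, 8426 and 9056 RPM with TB and at 5331, 768 and 7828 RPM with CR, and all 5 were lowest in TB replicate 1 and CR replicate 2. In these libraries gga-miR-32-5p stood at only 1.40 and 1.33 RPM, and the member pal-miR-215-5p at 1.23 and 2.67 RPM. The distances of names this low depend on the 1 added to RPM and on few reads. Of the other members, pal-miR-215-5p came at place 32 (0.63), dre-miR-192 at 40 (0.79) and mmu-miR-194-5p at 72 (1.14), while aca-miR-215-3p came at 173 (1.78). The name aca-miR-215-3p was thus further from hsa-miR-215-5p than the names dre-miR-192 or mmu-miR-194-5p were. This likeness is a description over 6 libraries, with no test.

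**Figure D4:**
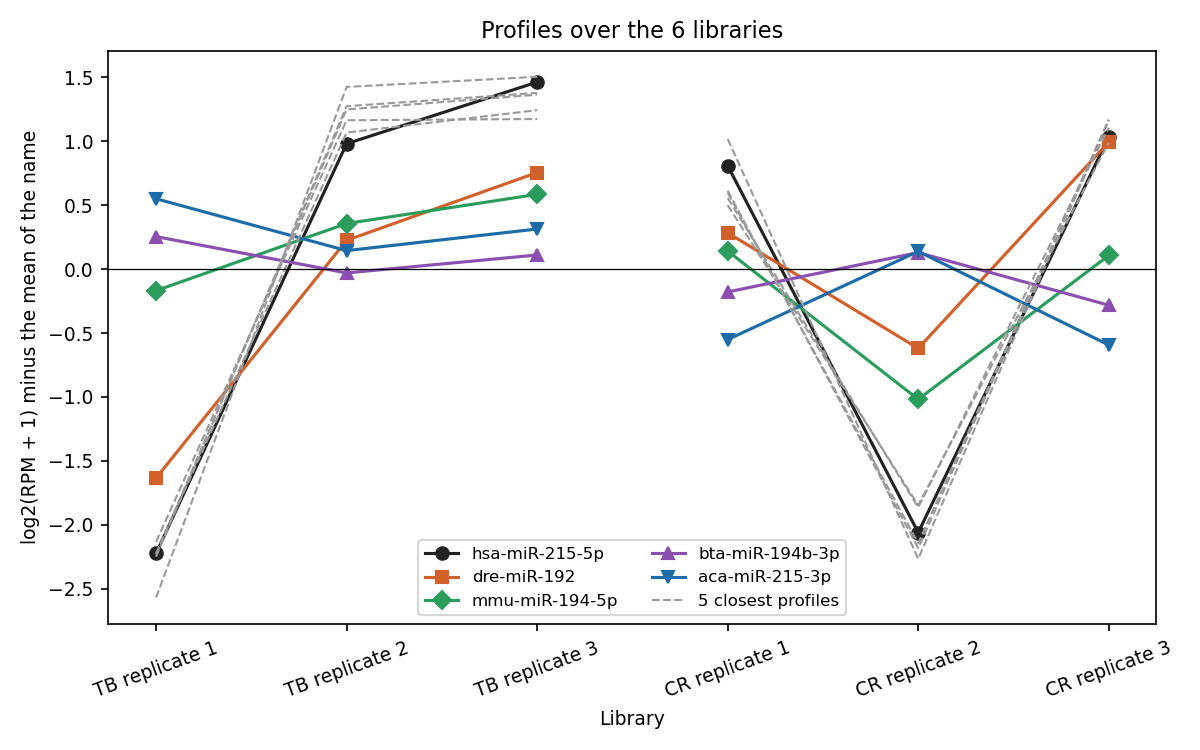
log2(RPM + 1) of 5 members in each library, minus the mean of the name, with the 5 profiles closest to hsa-miR-215-5p as dashed lines; lines join values of one name and carry no order. hsa-miR-215-5p and the closest profiles drop together in TB replicate 1 and CR replicate 2, dre-miR-192 and mmu-miR-194-5p less so, and the 3p names do not.

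Markers of the epithelium and of other cell types were read beside these values. The other epithelial microRNAs listed were miR-200a, miR-200b, miR-200c, miR-141, miR-429, miR-203, miR-205 and miR-31, of which the miR-200 family is known for keeping epithelial identity. Because near-identical names count the same reads, only the most abundant name of each microRNA was summed, a choice made after the values were seen. The sum was 18214, 8727 and 7268 RPM with TB and 9347, 14796 and 5098 RPM with CR. TB replicate 1 and CR replicate 2 were thus the highest, where miR-215-5p was lowest. In both of these libraries 5 of the 8 microRNAs (miR-200b, miR-200c, miR-429, miR-205 and miR-31) were above all others and 0 were below, a count of 5 that is close to the 57.3% of all tested names above in both, with 21.8% below. sha-miR-200b, for example, had 8991 RPM in TB replicate 1 and 6615 RPM in CR replicate 2 against 1366 to 3454 RPM elsewhere. ccr-miR-200a, at 5278 RPM in TB replicate 1, was at 3544 RPM in CR replicate 2, within the 2611 to 4311 RPM elsewhere. dre-miR-141-3p was lowest in TB replicate 1, at 732 RPM. In the 21 distinct tested sets of this list, 0 had an unadjusted p under 0.05 between CR and TB (limma) and the median log2 fold change was -0.18.

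Of the smooth muscle microRNAs, ola-miR-143 alone was counted at 117332, 161289 and 151677 RPM with TB and at 150207, 90227 and 197456 RPM with CR. This was above hsa-miR-215-5p in each library, so a marker of muscle was abundant in libraries that the labels call epithelial. It was lowest in TB replicate 1 and CR replicate 2, whereas dre-miR-145-5p was highest there, at 1490 and 941 RPM against 559 to 867 RPM. The sum of the blood microRNAs, taken in the same way, was lower there at 80.8 and 184 RPM against 276 to 381 RPM. Within that list gga-miR-142-5p, which made up most of the sum elsewhere, was lower in both libraries. For cpi-miR-144-5p the values there were 0 and 0.666 RPM, against 1.82 to 5.10 RPM elsewhere. The value in CR replicate 2 was a single read, so a lower level was not resolved there. ssc-miR-155-5p was higher in both, at 24.7 and 49.3 RPM against 6.90 to 9.98 RPM. hsa-miR-451a, at 24.2 and 46.0 RPM, lay within the 19.4 to 53.4 RPM of the others, and miR-150 was at 0. Sums were higher in TB replicate 1 and CR replicate 2 than elsewhere for the enteroendocrine list (4579 and 7599 RPM against 1445 to 2718 RPM), but within it bfl-miR-375 was higher and gga-miR-7 lower. Endothelial microRNAs also diverged, since bta-miR-221 was at 3218 and 2347 RPM against 80.6 to 215.4 RPM while oha-miR-126-5p was at 469 and 639 RPM against 736 to 1467 RPM. Of the striated muscle microRNAs, dme-miR-133-3p and mdo-miR-206 were higher and cel-miR-1-3p and gga-miR-499-5p lower. Sums of the mesenchyme list were 1209 and 1969 RPM against 318 to 571 RPM, with cgr-miR-214-3p higher in both libraries and cpi-miR-199-5p not. Those of the pancreas list were 83.6 and 84.6 RPM against 31.9 to 41.4 RPM. There dre-miR-217 and mmu-miR-216b-5p were higher in both libraries. ggo-miR-148a was higher only in CR replicate 2, at 59.3 RPM, with 31.4 RPM in TB replicate 1 against 30.8 to 36.7 RPM. The liver microRNA oha-miR-122-5p reached 328 RPM in CR replicate 2 and 7.36 RPM in TB replicate 1 against 1.55 to 5.10 RPM. The neuronal list ran from 45.2 to 112 RPM. The part of these markers, and of the depth of CR replicate 2, in the levels of miR-215-5p was not tested.

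**Figure D5:**
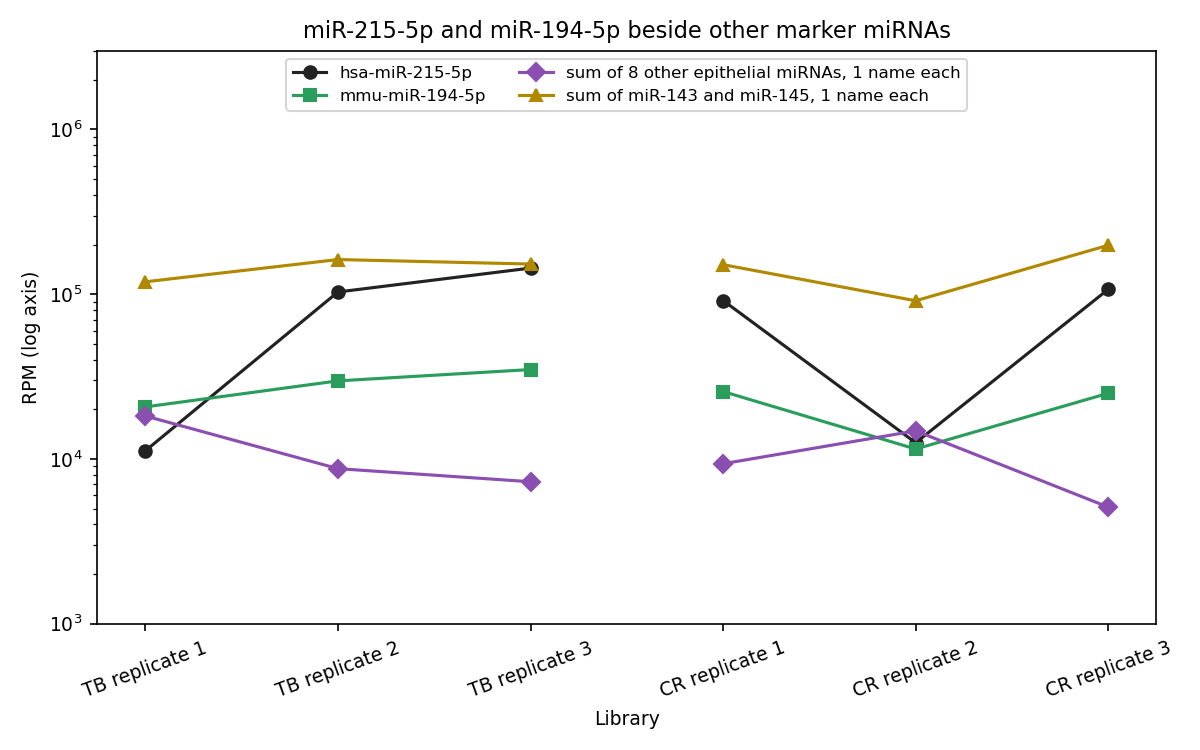
RPM (log axis) of hsa-miR-215-5p and mmu-miR-194-5p in each library, beside the summed level of 8 other epithelial microRNAs and of miR-143 with miR-145, each by its most abundant name; lines join values of one series and carry no order. The sum of the other epithelial microRNAs was highest in TB replicate 1 (18214 RPM) and CR replicate 2 (14796 RPM), the libraries in which hsa-miR-215-5p was lowest. Only 5 of the 8 were above all other libraries in both.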

How the data were processed

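For each library the authors deposited 1 table of miRNA names with values under a column headed tpm. These deposited values were read as RPM, although the methods section names FPKM. Each column sums to 1000000, and its values are whole multiples of a single step, which a correction for length would not leave. The aligner, miRNA database and genome build are not given in the sources used here. Divided by the smallest step of its column, every value (100%) came within 0.01 of a whole number, and these numbers were taken as reads. A read listed under more than one name is in the sums each time.

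A name was tested if 3 or more libraries had 10 or more reads of it, with limma 3.58.1 (lmFit, eBayes with trend) on log2(RPM + 1), which understates changes of low names, with Benjamini-Hochberg adjustment over all tested names. Single values and ratios were compared with two-sided exact permutation tests. edgeR 4.0.16 and DESeq2 1.42.0 on the recovered reads, TMM scaling, other filters and pseudocounts, a replicate block, left-out libraries and a block for TB replicate 1 and CR replicate 2 were alternatives. Scripts (Python 3.11.15, R 4.3.3) were tested on simulated data. Values per library are given for members with a mean of at least 10 RPM, together with the 5 profiles closest to the most abundant member and the named marker lists. The members and lists were chosen with earlier results of these data known. Sequences and coordinates of the miRNAs, and the study's proteomics, were not analysed here.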

Additional observations from a re-analysis of the deposited data

How the results depend on the processing

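The mean log2 ratio of the arms of miR-215 kept its direction in every alternative run, between 6.65 and 7.53 with a replicate left out and 8.22 without TB replicate 1 and CR replicate 2. Fewer than 6 libraries cannot reach a p under 0.05 in that test. The CR over TB difference of the arm ratio lay between -0.73 and 1.76 when single replicates were left out, that of the ratio of miR-194-5p to miR-215-5p between -0.98 and 0.57, and that of the summed share between -6.80 and 0.80 percentage points.

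Over all tested names, limma gave 0 an unadjusted p under 0.05. The number was 5 with edgeR and TMM (5 higher in CR), 5 with DESeq2 (5 higher), 9 with the unpaired test of the study on log2 values (1 higher, 8 lower), 4 without a filter on low values (3 higher, 1 lower), 1 with a pseudocount of 5 (higher), 24 (3 higher and 21 lower in CR) without TB replicate 1 and CR replicate 2, and 32 (27 higher and 5 lower in CR) when these libraries were given a block. It was 0 whichever replicate was left out. With an adjusted p under 0.05 it was 5 with that block (5 higher) and 0 otherwise, leaving out any replicate included. That block was set from the values of these same libraries, so its p-values cannot be taken at face value. Among members, the number with an unadjusted p under 0.05 was 1 with the unpaired test (lower in CR) and 0 otherwise. The paper's own limit on p for differential miRNAs was stricter than 0.05. The cause was not tested.

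Some log2 fold changes of single members changed sign. With edgeR and TMM, DESeq2 and TMM-scaled values that of ami-miR-215-3p was -0.082, -0.033 and -0.14 (0.036 in limma), and between -0.39 and 0.50 when single replicates were left out. For pal-miR-215-5p (0.13) it was -0.084 with edgeR and TMM, -0.055 with DESeq2, -0.17 without TB replicate 1 and CR replicate 2 and between -0.67 and 0.69 with single replicates removed. On the same removals hsa-miR-215-5p lay between -1.29 and 0.85, dre-miR-192 between -0.27 and 0.92 and cpi-miR-194-3p between -0.39 and 0.21 (-0.46 without TB replicate 1 and CR replicate 2).

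The labels do not say whether same-numbered samples were paired. Deviations from the group means correlated at -0.80, -0.91 and 0.91 between same-numbered libraries, and at 0.93 between TB replicate 1 and CR replicate 2. With 3 libraries a group these values mainly reflect those 2 libraries, so they cannot show a pairing or its absence. With a replicate block, 0 names had an unadjusted p under 0.05, and the summed share differed by -2.60 percentage points (p = 0.75, exact sign-flip permutation test), and changed no call. CR replicate 2, with 1500905 reads summed over all names, limits what can be seen of names under 1.999 RPM.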
